A study of Mus musculus with 8 samples.

Results

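The AP-1 transcription factor genes were examined in single hematopoietic stem cells (HSCs) of mice with and without the transgene that deletes Med23, a subunit of the Mediator complex. The members were named by symbol: Fos, Fosb, Fosl2, Jun, Junb, Jund, Atf3 and Batf. Of these 8 genes, 7 were among the 10720 genes of the expression table, and Atf3 was not analysed here. AP-1 is a pair of basic leucine zipper proteins, most often one of the Fos family (Fos, Fosb, Fosl2) with one of the Jun family (Jun, Junb, Jund), while Batf, a smaller protein of the same class, pairs with Jun proteins and is best known from lymphocytes. Growth factor, cytokine and stress signals reach Fos and Jun through MAP kinases within minutes, which makes several members immediate early genes. Their mRNAs are short-lived, and in blood cells AP-1 takes part in responses to stress and inflammation and in myeloid differentiation.

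The HSCs were sorted from bone marrow of adult C57BL/6 mice by the markers Lineage-Sca1+c-Kit+ and CD150+CD34-CD48- and picked by hand. KO mice were Mx1-cre+ Med23 L/L and WT mice were their Mx1-cre- Med23 L/L littermates, so both carried the conditional allele and the Cre recombinase was present in KO mice only. Deletion was induced with poly(I:C), a double-stranded RNA that raises interferon, which in turn drives the Mx1 promoter, and the time from poly(I:C) to the collection of single cells was not given. There were 4 libraries of each genotype, but the columns of the table name the genotype and a cell number and not the library. Each label was therefore 1 pool, no difference below has a replicate check, and library and genotype cannot be told apart.

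The table held 304 cells labelled WT and 282 labelled KO. Those with at least 2000 genes and 20000 UMIs (unique molecular identifiers, 1 per captured mRNA molecule) were used, which left 259 labelled WT with 21475782 UMIs and 234 labelled KO with 16180546. Their median depth was 59649 and 50281 UMIs. Levels are CPM, UMIs of a gene per 1000000 UMIs of the pool or cell. Because 1 tag at the 3′ end was counted per molecule, CPM is not scaled by gene length. Differences are the log2 ratio of the KO pool over the WT pool, and every interval is a 95% interval for counting error only. Med23 itself had 122 UMIs (5.68 CPM) in the WT pool and 117 (7.23 CPM) in the KO pool, and its log2 ratio was 0.35 (interval -0.03 to 0.73). Of the KO UMIs of Med23, 23.9% lay in 1 cell. A Med23 UMI was found in 18.1% of WT and 11.5% of KO cells, and in 8.49% (5.40 to 12.6) and 5.98% (3.31 to 9.83) once each cell was thinned to 20000 UMIs. The pooled level of the targeted gene was thus not lower in KO and the intervals of its shares overlapped, so every direction below is that of the cells labelled KO against the cells labelled WT. The study reported efficient deletion of Med23 in the hematopoietic system after poly(I:C). Whether tags at the 3′ end register that deletion was not tested. More than 1000 CPM of transcripts of an oocyte gene list (Zp3, Gdf9 and other egg genes) was found in 64 of the cells labelled WT and 2 of those labelled KO. Results are given with and without these cells, called oocyte-rich. The cells left are not free of such transcripts.

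The sequences just before the starts of 5 members are shown because they held a motif through which immediate early genes are known to be switched on. They are the 120 bases before the annotated start, 5′ to 3′ on the strand of the gene, from RefSeq on build GRCm38.p6. Capitals mark TGACG, the core of the cyclic AMP response element (CRE), TGACATCA, the variant AP-1 site of the Jun promoter, or TATAAA, the TATA box.
Fos, chr12:85473770-85473889, plus strand: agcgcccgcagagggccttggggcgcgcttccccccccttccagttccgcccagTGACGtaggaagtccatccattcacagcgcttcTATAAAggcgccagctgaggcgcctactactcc
Fosb, chr7:19310046-19310165, minus strand: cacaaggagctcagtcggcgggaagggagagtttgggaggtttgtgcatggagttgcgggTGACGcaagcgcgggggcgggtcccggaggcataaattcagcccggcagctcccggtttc
Jun, chr4:95052223-95052342, minus strand: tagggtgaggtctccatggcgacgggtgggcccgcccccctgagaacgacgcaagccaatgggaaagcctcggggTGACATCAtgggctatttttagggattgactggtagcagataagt
Junb, chr8:84978749-84978868, minus strand: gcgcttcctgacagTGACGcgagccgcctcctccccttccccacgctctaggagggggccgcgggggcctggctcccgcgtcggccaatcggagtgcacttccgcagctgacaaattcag
Batf, chr12:85686600-85686719, plus strand: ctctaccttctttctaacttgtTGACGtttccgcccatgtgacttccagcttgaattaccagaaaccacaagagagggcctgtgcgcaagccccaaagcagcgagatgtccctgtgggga
Neither binding nor chromatin was measured in these cells, so a match is a description of the letters.

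Motifs were searched on both strands from 250 bases before to 50 bases after each start. Windows were found for the 7 members in the table and for Atf3, which is left out here as its RNA was not analysed. TGACG lay 129 and 66 bases before the start of Fos, 60 before that of Fosb, 106 before that of Junb and 98 before that of Batf, and 20.8% of all 32817 windows held it. The variant TGACATCA lay 45 bases before the start of Jun and was present in 3.62% of all windows. TATAAA lay 33 bases before the start of Fos and at the first base after that of Junb. It was searched together with TATATA, and 17.1% of windows held either. The full CRE (TGACGTCA, 1.79% of windows, which includes TGACG), the consensus AP-1 site (TGACTCA or TGAGTCA, 5.20%) and the serum response element (CArG box, 1.63%) were not among the letters of any of these 7 windows. Sequence outside the windows was not searched, so a gene can hold any of these sites further from its start. The windows of Fosl2 and Jund held none of these motifs. The GC box GGGCGG, found in 35.6% of all windows, was present in those of Fos, Fosb, Fosl2, Jun and Batf. The members whose windows hold TGACG include both Fosb, with the largest ratio between the pools, and Batf, with the smallest.

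Among the Fos family, Fos was the member with the most mRNA. It had 2366 UMIs in the WT pool (110 CPM, interval 106 to 115) and 5589 in the KO pool (345 CPM, 336 to 355), 3.14-fold higher in KO with a log2 ratio of 1.65 (1.58 to 1.72). The difference was present at the median of cells and at the top of their distribution. In single cells labelled WT, Fos was 0 CPM at the lowest and at the median, 27.7 at the 75th percentile, 294 at the 90th percentile and 3103 at the highest. In cells labelled KO the lowest was 0, the median 25, the 75th percentile 249, the 90th percentile 1722 and the highest 5073. The ranges overlapped, with cells that held no Fos UMI under both labels. The highest single cell held 12.8% of the WT and 13.0% of the KO UMIs of Fos.

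Fosb, a close relative of Fos that is also induced at once by signals, was rare under both labels. It had 37 UMIs in the WT pool (1.72 CPM, 1.21 to 2.37) and 241 in the KO pool (14.9 CPM, 13.1 to 16.9), which was 8.65-fold higher in KO with a log2 ratio of 3.11 (2.61 to 3.65). This was the largest ratio of the 7 members, at percentile 99.7 of all genes. Few cells carried much of it. The highest single cell held 18.9% of the WT and 20.3% of the KO UMIs of Fosb, and the highest KO cells held 49, 44 and 34 of the 241. Cells labelled WT had a median and a 90th percentile of 0 CPM and a highest value of 178. Cells labelled KO had a median of 0, a 90th percentile of 32.6 and a highest value of 593. When deep cells were not allowed to weigh more than others, the log2 ratio was smaller, at 2.33 with every cell thinned to 20000 UMIs. Fosb is on the list of genes higher in KO that the study chose from these same cells, so its direction here is not independent evidence.

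Fosl2, which encodes Fra-2, had the fewest KO UMIs of the members. It had 48 in the WT pool (2.24 CPM, 1.65 to 2.96) and 83 in the KO pool (5.13 CPM, 4.09 to 6.36), which is 2.30-fold and a log2 ratio of 1.20 (0.67 to 1.74). The lowest and the median cell were at 0 CPM under both labels, and the highest cell was at 176 in WT and 235 in KO. Single cells carried a large part of this gene, 35.4% of the WT and 25.3% of the KO UMIs. The log2 ratio was 0.97 with every cell in the table and 0.88 with thinned cells, both short of 2-fold.

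Among the Jun family, Jun, the usual partner of Fos, was the most abundant member in both pools. It had 2914 UMIs in the WT pool (136 CPM, 131 to 141) and 5828 in the KO pool (360 CPM, 351 to 370), 2.65-fold higher in KO with a log2 ratio of 1.41 (1.34 to 1.47). The difference in Jun was present, as for Fos, at the median as well as at the top of the distribution. Cells labelled WT ran from 0 CPM through a median of 19.5 and a 90th percentile of 497 to 2136. Cells labelled KO ran from 0 through a median of 216 and a 90th percentile of 1125 to 4308. The median cell labelled KO thus lay close to the 75th percentile of cells labelled WT, 240 CPM. The highest cell held 12.0% of the WT UMIs of Jun and 4.87% of the KO UMIs.

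Junb, which can hold back Jun activity and is known to limit the expansion of myeloid cells, had 1679 UMIs in the WT pool (78.2 CPM, 74.5 to 82.0) and 2671 in the KO pool (165 CPM, 159 to 171). It was 2.11-fold higher in KO with a log2 ratio of 1.08 (0.99 to 1.17). Cells labelled WT ran from 0 CPM through a median of 14.4 and a 90th percentile of 253 to 1760. Cells labelled KO ran from 0 through a median of 50.7 and a 90th percentile of 475 to 2331. The lower limit of the interval of Junb fell just short of a 2-fold difference.

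Jund, the Jun protein that many resting cells hold, was the least abundant of its family. It had 455 UMIs in the WT pool (21.2 CPM, 19.3 to 23.2) and 734 in the KO pool (45.4 CPM, 42.1 to 48.8), 2.14-fold higher in KO with a log2 ratio of 1.10 (0.93 to 1.27). The median cell was at 0 CPM under both labels. The 90th percentile was 87.7 in WT and 204 in KO, and the highest cell 347 and 493.

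Batf was the exception among the 7. It had 1622 UMIs in the WT pool (75.5 CPM, 71.9 to 79.3) and 1346 in the KO pool (83.2 CPM, 78.8 to 87.8), 1.10-fold apart with a log2 ratio of 0.14 (0.03 to 0.24). Cells labelled WT ran from 0 CPM through a median of 11.0 and a 90th percentile of 249 to 677. Cells labelled KO ran from 0 through a median of 14.9 and a 90th percentile of 275 to 802. The sign of the ratio did not hold across settings, since it was -0.15 with thinned cells and -0.17 with the authors' normalized values. Without oocyte-rich cells it was 0.05 (-0.07 to 0.16).

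**Figure D1:**
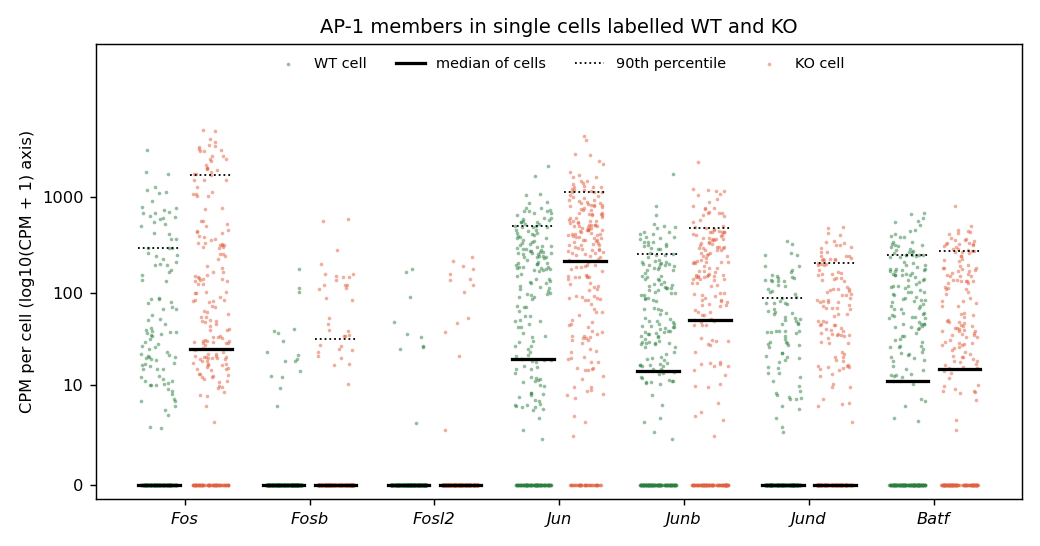
CPM of each AP-1 member in every kept cell, 259 labelled WT (green) and 234 labelled KO (orange), on a log10(CPM + 1) axis, with the median as a bar and the 90th percentile as a dotted line. The median of Jun is at 19.5 CPM in WT and 216 in KO and the 90th percentile of Fos at 294 and 1722, while the cells of Batf lie at like heights under both labels.

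In the order of levels, the WT pool ran from Jun (136 CPM) and Fos (110) through Junb (78.2), Batf (75.5), Jund (21.2) and Fosl2 (2.24) to Fosb (1.72). The intervals of Junb and Batf overlapped, as did those of Fosl2 and Fosb. In the KO pool the order was Jun (360 CPM), Fos (345), Junb (165), Batf (83.2), Jund (45.4), Fosb (14.9) and Fosl2 (5.13), and the intervals of Jun and Fos overlapped. Fosb and Fosl2, not apart in WT, thus stood in the other order. All of these comparisons are between summed cells and carry no spread between animals.

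Of the 7 members, 6 were at least 2-fold higher in the KO pool, where 6.98% of all 10720 genes were, and none was at least 2-fold lower, where 7.94% of all genes were. At a threshold of 1.5-fold the counts were the same 6 and 0, beside 17.2% and 15.5% of all genes. Among the 5 members that averaged 1 UMI or more in a cell (Fos, Jun, Junb, Jund and Batf) 4 were at least 2-fold higher, where 3.55% of the 7554 genes of that abundance were. The median log2 ratio of the members was 1.20, and that of all genes 0.02. The ratio of Fos stood at percentile 98.0 of all genes, those of Jun, Fosl2, Jund and Junb at 96.8, 95.3, 94.3 and 94.1, and that of Batf at 58.7. Dividing the pools by median-of-ratios or TMM factors lowered each log2 ratio by only 0.03. Cells of the 2 labels were not distinguished by library, so how far the libraries of one genotype differ in these genes was not tested.

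**Figure D2:**
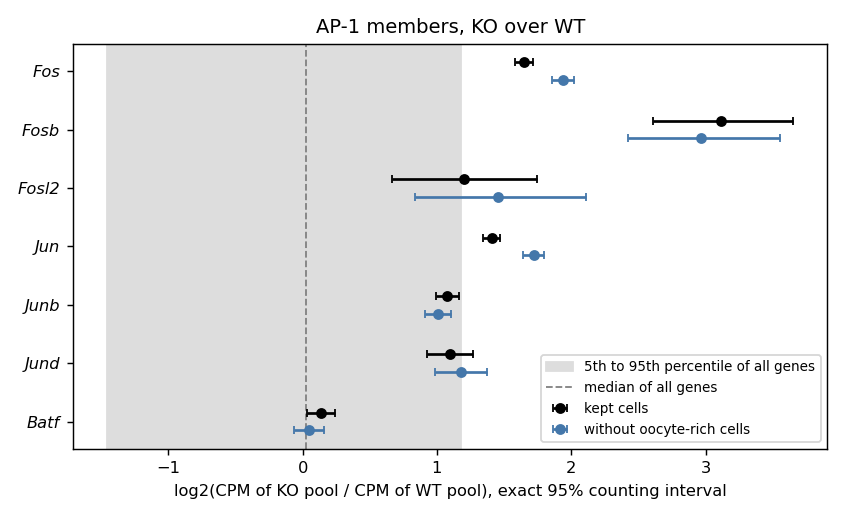
Log2 ratio of the KO pool over the WT pool for each AP-1 member with its exact 95% counting interval, for all kept cells (black) and without oocyte-rich cells (blue), beside the 5th to 95th percentile of all genes (-1.45 to 1.18, grey). The grey band was taken from all kept cells only. Fosb, Fos, Jun and Fosl2 lie beyond it in both sets of cells, Fosl2 only just for all kept cells (1.20), and Batf lies near 0.

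Oocyte-rich cells, which were nearly all labelled WT, held more of some members than other WT cells and less of others. Fos was at 171 CPM in the 64 such WT cells and 90.3 CPM in the 195 other WT cells, and Jun at 216 and 109 CPM. Junb went the other way, at 65.8 and 82.2 CPM, as did Batf, at 60.7 and 80.4 CPM. Without these cells the log2 ratio was 1.94 for Fos and 1.72 for Jun, larger than with them, and 2.97 for Fosb, 1.46 for Fosl2, 1.18 for Jund and 1.01 for Junb. Each of these 6 members thus stayed at least 2-fold higher in KO without the oocyte-rich cells. The share of all genes past 2-fold in this set of cells is not given here, so the count has no background beside it. Of the 195 WT cells left, 33.8% still held a UMI of the egg coat gene Zp3 at 20000 UMIs a cell.

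The 7 members together had 9121 UMIs in the WT pool (425 CPM) and 16492 in the KO pool (1019 CPM). Their summed log2 ratio was 1.26 (1.23 to 1.30), or 1.40 (1.36 to 1.44) once oocyte-rich cells were set aside. Summed over the members, cells labelled WT ran from 0 through a median of 275 and a 90th percentile of 1072.5 to 4315 CPM. Cells labelled KO ran from 0 through a median of 541 and a 90th percentile of 3513 to 8454 CPM. Of the 234 cells labelled KO, 171 (73.1%, 66.9 to 78.6) lay above the median of cells labelled WT, and 69 (29.5%, 23.7 to 35.8) above their 90th percentile. AP-1 mRNA was unevenly held under both labels. The 26 highest WT cells and the 24 highest KO cells, 1 in 10 of each, held 49.5% and 50.02% of the AP-1 UMIs of their pool. No AP-1 UMI was found in 13 cells labelled WT and 4 labelled KO.

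The make-up of the AP-1 mRNA also differed between the pools. Fos made up 25.9% (25.04 to 26.9) of the AP-1 UMIs in WT and 33.9% (33.2 to 34.6) in KO, and Fosb 0.406% and 1.46%. The share of Jun was 31.9% in WT and 35.3% in KO, that of Junb 18.4% and 16.2%, that of Jund 4.99% and 4.45% and that of Fosl2 0.526% and 0.503%. Batf made up 17.8% (17.0 to 18.6) in WT and 8.16% (7.75 to 8.59) in KO. Fos, Fosb and Jun thus took a larger part of the pool labelled KO and Batf a smaller one.

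Shares of cells with a UMI were compared after each cell had been thinned at random to 20000 UMIs, so that depth was equal. Jun was found in 49.0% of WT cells (42.8 to 55.3) and 71.4% of KO cells (65.1 to 77.1), and Fos in 24.3% (19.2 to 30.02) and 49.1% (42.6 to 55.7). Junb was found in 39.4% (33.4 to 45.6) and 52.6% (46.0 to 59.1), and Jund in 22.0% (17.1 to 27.6) and 35.5% (29.3 to 42.0). For Fos, Jun and Jund the intervals of the labels did not overlap, and for Junb and Fosb they stood just apart. The share of all genes whose intervals stood apart is not given here, so this is not read as particular to AP-1. Fosb was found in 3.09% (1.34 to 6.00) and 10.3% (6.68 to 14.9), Fosl2 in 2.32% (0.855 to 4.97) and 5.56% (2.99 to 9.31) and Batf in 40.9% (34.9 to 47.2) and 41.5% (35.1 to 48.1). Without thinning the shares were 64.1% and 82.5% for Jun, 40.5% and 68.4% for Fos, 57.1% and 62.0% for Junb and 33.6% and 47.4% for Jund. They were 6.56% and 14.5% for Fosb, 3.86% and 5.98% for Fosl2 and 52.5% and 55.6% for Batf.

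How much of such a share can come from RNA of other cells was gauged with Zp3, an egg coat gene that blood cells do not use. Zp3 was found in 44.8% of thinned cells labelled WT and 8.12% of those labelled KO, and in 33.8% of the WT cells that were not oocyte-rich. In WT the shares of Fos, Fosb, Fosl2, Junb, Jund and Batf lay below that of Zp3, and in KO that of Fosl2 did, and none of these is taken for a share of expressing cells. Other genes set lower bars. The egg gene Gdf9 was found in 31.7% of WT and 4.70% of KO cells, and the stroma gene Col1a1 in 9.27% and 0.855%. In WT, Junb and Batf lay above Gdf9, and only Fosb and Fosl2 lay below both genes. Zp3, at 394 CPM in WT, was more abundant than any member, so its share does not measure the foreign part of theirs. In the WT cells that were not oocyte-rich the shares were 45.6% for Jun, 42.1% for Batf, 40.0% for Junb, 22.1% for Fos and 20.5% for Jund. The last 2 were below that of Zp3 but above that of Gdf9 in the same cells, 19.5%.

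The number of UMIs in a positive cell differed too. Thinned cells with a Fos UMI held on average 8.43 Fos UMIs in WT and 17.2 in KO, those with a Jun UMI 6.64 and 11.7 Jun UMIs, and those with a Junb UMI 4.35 and 6.81. For Jund it was 2.21 and 3.39 and for Fosb 1.88 and 2.83, but 3.75 and 3.33 for Batf and 3 and 2.31 for Fosl2. The higher levels of Fos, Jun, Junb, Jund and Fosb in KO thus came both with more cells holding a UMI and with more molecules in each of them.

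Members were also found together more often in cells labelled KO. A thinned cell held a UMI of 1.81 members on average in WT (median 2) and of 2.66 in KO (median 3). At least 4 members were found in 27 of 259 WT cells (10.4%, 6.98 to 14.8) and in 63 of 234 KO cells (26.9%, 21.4 to 33.1). No member was found in 45 WT cells (17.4%) and 19 KO cells (8.12%). At the other end, 6 members were found in 0 WT cells and 7 KO cells, and all 7 in 0 WT cells and 2 KO cells. A count of 0 in 259 cells has an upper limit of 1.41%.

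**Figure D3:**
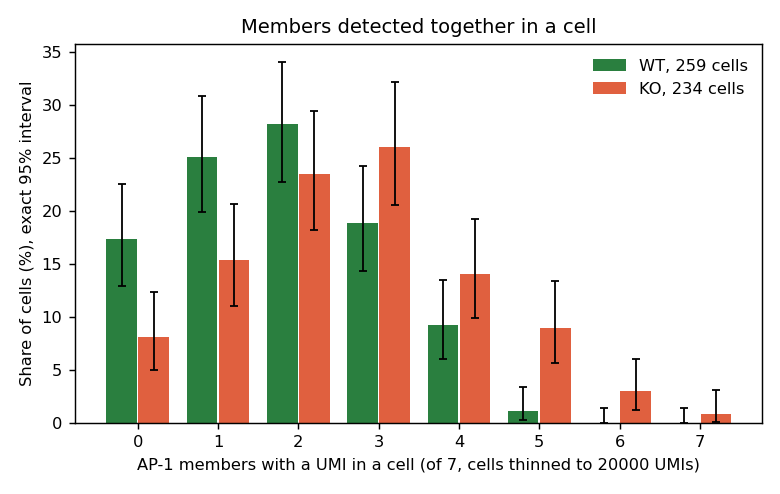
Share of thinned cells in which 0 to 7 AP-1 members had a UMI, for 259 cells labelled WT (green) and 234 labelled KO (orange), with exact 95% binomial intervals. The bars of KO are lower at 0 to 2 members and higher from 3 members on, and no WT cell has 6 or 7.

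Higher shares of each member make more cells with several, so each pair was set against the product of its own shares. A ratio of 1 means that members fall on cells as if drawn separately. The interval of a ratio covers the count of cells with both members and takes the product as known, so it is not exact. Over the 21 pairs the median ratio was 1.18 in WT and 1.26 in KO. The clearest pairs in WT were Fos with Jun (46 cells, ratio 1.49, 1.12 to 1.93) and Fos with Junb (41 cells, 1.65, 1.21 to 2.18). In KO the ratio was 1.40 (1.09 to 1.74) for Fos with Jund, 1.26 (1.03 to 1.51) for Fos with Junb and 1.70 (1.05 to 2.56) for Fos with Fosb. Fos and Jun were found together in 97 KO cells, 41.5% of them, with a ratio of 1.18 and an interval that reached 1 (upper limit 1.37). Fosb with Fosl2, the rarest pair, had 5 KO cells and a ratio of 3.75 (1.22 to 8.63), and no WT cell. Batf stayed near 1 with the common members, at 1.01 with Fos and 1.04 with Jun in WT and 1.03 with Fos and 0.95 with Jun in KO. Whether a ratio differed between the labels was not tested.

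The levels of the members in single cells were compared in the same way. Pearson's r of log2(UMIs + 1) between Fos and Junb was 0.39 across the 259 WT cells and 0.55 across the 234 KO cells, between Fos and Jun 0.33 and 0.45, between Fos and Fosb 0.19 and 0.48 and between Jun and Junb 0.20 and 0.40. Over all 21 pairs r had a median of 0.04 in WT and 0.21 in KO. Batf followed none of the others, with r between -0.10 and 0.07 in both. Cells of a label share libraries, and many counts are 0, so these values describe the cells and carry no test.

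**Figure D4:**
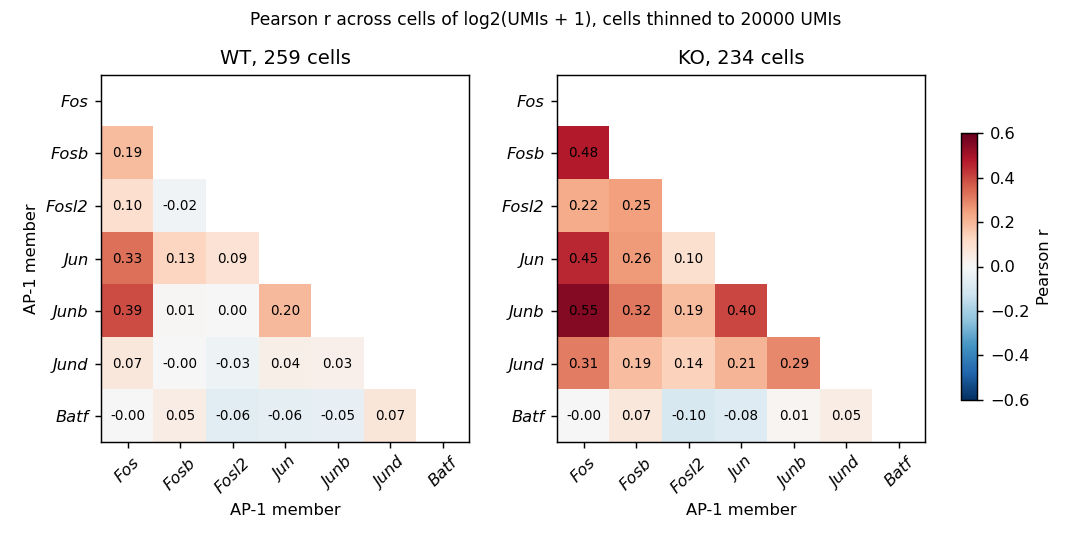
Pearson's r across thinned cells of log2(UMIs + 1) for each pair of AP-1 members, in 259 cells labelled WT (left) and 234 labelled KO (right), with red for positive and blue for negative values. The pair of Fos and Junb has the highest value in both panels (0.39 and 0.55), and the row of Batf stays between -0.10 and 0.07.

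Genes that varied with the members from cell to cell were then ranked over 9302 genes by the lower of their r with the summed AP-1 UMIs in the 2 labels. Highest was Dusp1, a phosphatase that switches off MAP kinases, with r of 0.31 in WT and 0.46 in KO. It was followed by Ier2, an immediate early gene (0.29 and 0.35), Zfp36, which encodes an RNA-binding protein that speeds the decay of short-lived mRNAs (0.27 and 0.33), Egr1, a zinc finger immediate early factor (0.26 and 0.27), and Btg2, an antiproliferative gene (0.26 and 0.29). The median gene had a lower r of -0.03. Between the pools Dusp1 had a log2 ratio of 1.52, Btg2 1.19, Zfp36 1.002 and Ier2 0.58, all higher in KO. Egr1 went the other way, with 472 UMIs in WT and 136 in KO and a log2 ratio of -1.39 (-1.67 to -1.11). Of the Egr1 UMIs, 26.9% in WT and 34.6% in KO lay in 1 cell. In WT the 23 thinned cells with an Egr1 UMI held 26.2 AP-1 UMIs on average and the other 236 held 7.504. In KO the 13 cells with one held 67.8 and the other 221 held 20.8. Egr1 thus went with the AP-1 members among cells of either label, while its pooled level was lower and theirs higher in KO.

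AP-1 levels were also set against genes of other traits of these cells. In WT, cells with a UMI of Tyrobp, a myeloid adaptor gene, held 13.8 AP-1 UMIs on average and those without 8.23, while in KO they held 23.4 and 23.3. For Itga2b, the gene of CD41, the means were 8.34 with and 9.93 without a UMI in WT and 21.7 and 28.1 in KO. For Mki67, a gene of dividing cells, they were 9.61 and 9.03 in WT and 23.3 and 23.4 in KO. The medians with and without a UMI were 7.5 and 5 for Tyrobp in WT and 11 and 11 in KO. For Itga2b they were 5 and 6 in WT and 11 and 11 in KO, and for Mki67 4 and 6 in WT and 9 and 11 in KO. The means in KO were above those in WT on both sides of each split.

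Other genes of the pathway were taken by role, and their counts at 2-fold are read against the 6.98% of genes that were at least that much higher and the 7.94% that were lower. Of the other AP-1 family genes, 9 of 13 were in the table, 1 was at least 2-fold higher and 1 lower, and their median log2 ratio was 0.13. Jdp2, a repressor of the same class, was at 2.48, but 74.8% of its KO UMIs lay in 1 cell and the ratio was 0.99 without the top cell of each label. Atf7 was at 0.35 but -0.33 with thinned cells, and the small Maf genes Mafg and Maff, whose proteins have no activation domain, were at -0.39 (-0.06 with thinned cells) and -1.24. The median of these genes was -0.09 with the authors' normalized values, so it has no firm sign.

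Of the upstream kinases (31 of 33 in the table), 3 were at least 2-fold higher and 1 lower, with a median of 0.28. Highest among those averaging 0.5 UMI or more were Map3k8 (1.499) and Map3k3 (1.20), which act high in the MAP kinase cascades, and lowest were Map2k3 (-0.62) and Map3k2 (-0.28, but 0.05 without oocyte-rich cells). Outside the rule for named genes, and picked for their size, Map3k5 was at 1.04 (0.15 with thinned cells) and the p38 kinase gene Mapk12, with 175 and 9 UMIs, at -3.87. Of the 16 transcription factors that act on the Fos and Jun promoters, 1 was at least 2-fold higher and none lower, with a median of 0.26. Srf, which binds the serum response element, was at 1.24 but 0.47 with thinned cells. Mef2c, a myeloid and lymphoid factor, was at 0.92, Crtc3, a coactivator of CREB, at -0.14 (-0.34 to 0.05) but 0.14 with thinned cells, and Mef2d at -0.40. In all, 26 of the 31 kinases and 14 of the 16 factors were higher in KO to any extent, where 51.9% of all genes were.

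Negative regulators of the pathway (18 of 21 in the table) had a median of 0.49, with 6 at least 2-fold higher and 2 lower. Dusp1 (1.52) and Dusp7 (1.01), both phosphatases of MAP kinases, were the highest by the rule for named genes. The lowest were Itch, a ubiquitin ligase that acts on Jun proteins (-0.34, but 0.07 with thinned cells), and Spry2, an inhibitor of receptor signalling (-1.04). In WT, 39.6% of the Spry2 UMIs lay in 1 cell, and its ratio was -0.28 without oocyte-rich cells. The other gene past 2-fold was its relative Spry4, singled out by its value, at -4.20 from 122 and 5 UMIs. Other immediate early genes (20 of 26) had a median of 0.33, with 6 at least 2-fold higher and 2 lower. Socs3, which damps cytokine signalling, was at 1.96 and Ppp1r15a, a gene of the stress response to unfolded proteins, at 1.29, while Egr1 was at -1.39 and Myc, a growth regulator, at -1.37. The median of the AP-1 members, 1.20, was above those of both lists, and the difference was not tested.

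Reported AP-1 targets (14 of 22) had a median of 0.44, with 1 gene at least 2-fold higher and 1 lower. Mmp14, a membrane metalloproteinase, was at 0.88 and Cd44, an adhesion receptor, at 0.79, and Gclm, an enzyme of glutathione synthesis, was at -0.62. Cxcl2, a chemokine, was at -0.78, but 98.4% of its WT and 87.2% of its KO UMIs lay in 1 cell each, and it was at 2.22 without these. The genes past 2-fold, named for that, were Hmox1, an enzyme of heme breakdown, at 1.29 (0.46 with the authors' values) and the chemokine gene Ccl2 at -2.03 (0.13 without oocyte-rich cells). In all, 9 of the 14 were higher in KO to any extent, where 51.9% of all genes were.

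**Figure D5:**
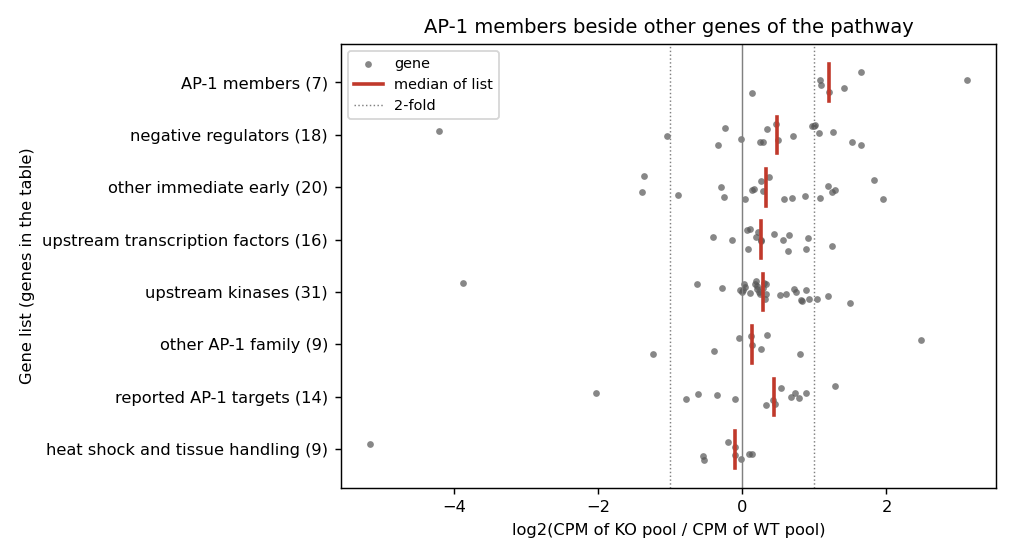
Log2 ratio of the KO pool over the WT pool for each gene (points) of the AP-1 members and of 7 other lists, with the median of each list as a red bar and 2-fold as dotted lines. The median is 1.20 for the AP-1 members, 0.49 for negative regulators and -0.10 for heat shock genes.

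Fos, Jun and many immediate early genes are known to be induced while tissue is dissociated and cells are sorted, as heat shock genes are. Heat shock genes (9 of 11) had a median of -0.10, with none at least 2-fold higher and 1 lower. The inducible genes Hspa1a and Hspa1b were not in the table, so the list says nothing of them. Hsph1 was at 0.13 and Dnajb1 at 0.09, but at -0.12 and -0.04 with thinned cells. Hspe1 was at -0.53 and Hspd1 at -0.55, all 4 of them chaperones or their partners. Hspb1, named for its size, had 142 and 2 UMIs and was at -5.16 with the KO count raised to the floor of 3 (interval -8.80 to -3.86, from the count itself). Of its WT UMIs, 42.3% lay in 1 cell. The time from tissue to lysis is not recorded per cell, and its part in the AP-1 levels was not tested.

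The HSC markers were all in the table (12 of 12) at 1469 CPM in WT and 1381 in KO, with a median log2 ratio of -0.19. Mecom (1.14, but 0.41 with thinned cells) and Meis1 (0.59) were higher in KO. Slamf1 (-2.26), the gene of the sort marker CD150, and Hoxb5 (-0.72, but -0.15 with thinned cells) were lower. Markers of other cell types moved with the labels as well, and their part in the AP-1 levels was not tested. Neutrophil markers (3 of 9) summed to 106 CPM in WT and 279 in KO, but their median log2 ratio was -0.90. Prtn3 was at 1.69, S100a8 at -1.09 and S100a9 at -0.90. Of the KO UMIs of S100a8 and S100a9, 66.9% and 73.1% lay in 1 cell. Macrophage markers (2 of 7, Lyz2 at 0.19 but -0.08 with thinned cells and Cd68 at 0.79) summed to 252 and 306 CPM, T and NK markers (2 of 8, Nkg7 at 0.26 but -0.01 with the authors' values) to 175 and 210, the B marker Cd79b (1 of 7, 0.64) to 55.4 and 86.3 and the mast cell marker Cpa3 (1 of 5, 1.21) to 9.22 and 21.3. Erythroid markers (4 of 9) summed to 1498 and 1167 CPM, and 96.6% of the KO UMIs of Car1 lay in 1 cell. Markers of stroma and endothelium (5 of 8, Pecam1 at 1.45, Emcn at 0.99 and Col1a1 at -6.02) summed to 70.5 and 99.4 CPM, and oocyte genes (23 of 24) to 2406 and 46.7.

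Sequencing depth differed between the labels, so the members were also compared within 3 classes of depth, divided at 39079 and 79036 UMIs, a split chosen after the data were seen. From the shallowest to the deepest class the summed log2 ratio was 1.76, 0.88 and 1.24. Fos had 120 WT and 1315 KO UMIs in the shallowest class, a log2 ratio of 3.39, against 1.18 and 1.49 in the others. Jun was even across depth, at 1.35, 1.10 and 1.43, and Jund was at 1.25, 0.87 and 0.99. Junb was at 1.56, 0.51 and 1.19 and Fosb at 2.07, 2.02 and 4.09. Fosl2 was at 2.87 from 3 WT and 23 KO UMIs in the shallowest class (1.15 to 5.25) and at 0.71 and 0.60 in the others, with intervals that included 0. Batf was at -0.14, -0.01 and 0.25. Apart from Batf, each member was higher in KO at every depth.

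Jun, Junb and Jund are genes of a single exon, while Fos, Fosb, Fosl2 and Batf are spliced. In the GENCODE vM21 annotation of GRCm38, Jun overlaps the antisense gene Junos, Junb the protein-coding gene Prdx2 on the other strand and Jund the antisense gene Gm11175. Whether the counting used strand was not given in the sources used here, and without it reads of these partners cannot be told apart. Fos, Fosb, Fosl2 and Batf overlap no other annotated gene. The data are RNA levels, so the amount, phosphorylation and pairing of AP-1 proteins were not measured.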

How the data were processed

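Single HSCs labelled WT and KO were compared over AP-1 genes. The authors separated reads by cell barcode, aligned them to the mm9 transcriptome, collapsed UMIs to transcript counts and normalized these (aligner and method not given in the sources used here). They deposited the values as log2 of 1 plus the normalized count, for genes averaging above 0.2. On the linear scale, each cell's values were multiples of its smallest one, and dividing by it recovered UMIs (100% whole within 0.01). No column lacked a label. Columns carry cell numbers, and cell barcodes were not analysed here.

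Kept cells (2000 genes, 20000 UMIs) were summed per label and scaled to CPM. For a log2 ratio a count below 3 was raised to 3, but not for its interval. No doublet caller was run on these picked cells. Intervals were Clopper-Pearson for ratios and shares and Poisson for CPM, at 95%, and cover counting error only. With 1 pool a label there was no replicate and no test, so no p-value was computed. Shares, co-detection and Pearson's r used cells thinned to 20000 UMIs. The ratio and interval code was tested on simulated data. The planned design allowed for a table without library names, and that fallback was used.

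The members and gene lists were chosen with earlier results of these data known. Named genes were Med23, every member, the 2 genes highest and lowest of each list with a mean of at least 0.5 UMI, and the 5 genes most like the summed members. Tyrobp, Itga2b, Mki67 and Zp3 were named in addition. Alternatives covered cells kept, thinning, scaling (median of ratios, and TMM trimming 30% of ratios and 5% of levels), the authors' values, a log scale, single top cells, oocyte-rich cells, fold and detection. Promoters were read from RefSeq. Python 3.11.15, numpy 2.4.6, pandas 2.3.3, scipy 1.17.1 and matplotlib 3.10.9 were used.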

Additional observations from a re-analysis of the deposited data

How the results depend on the processing

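Fos, Fosb, Fosl2, Jun, Junb and Jund, the median of the members and their sum kept their direction under every alternative run, while Batf and Med23 did not. Batf, 0.14, was -0.15 with cells thinned before summing, -0.17 with the authors' normalized values and -0.0025 as the difference of mean log2(CPM/100 + 1) over cells. On that last scale, which shrinks low genes by construction, the median of the members was 0.22, 0 of them were past 2-fold and their sum was 0.90. The summed log2 ratio, 1.26, was 1.35 with thinned cells, 1.16 with the authors' values, 1.31 when each gene's top cell was left out and 1.40 when oocyte-rich cells were. On the ratio scale the median, 1.20, ran from 1.08 to 1.46, and the number of members at least 2-fold higher from 4 (of the 5 with a mean of at least 1 UMI) to 6. It was 5 with every cell and 5 with thinned cells, where Fosl2 missed the threshold. The share of all genes past 2-fold with every cell, or with thinned cells, is not given here. The excess of KO cells with at least 4 members, 16.5 percentage points, ran from 11.7 (at least 2 UMIs) to 22.3 (no thinning), and was 19.1 with another random draw. The difference in the share of Junb, 13.2 points, was 3.66 at 40000 UMIs per cell, where 176 WT and 144 KO cells remained, and 4.82 without thinning. These settings change the cells used or leave depth unequal between the labels. The cause of these shifts was not tested. Med23, 0.35, was -0.40 in cells with 3000 genes and 30000 UMIs or more and -0.13 with the authors' values.

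Leaving out a library and a replicate block were not run, because the columns do not give the library. No paired analysis was possible because no replicate number stands in the column names. Counting intervals say nothing of the spread between animals, and the 37 and 48 UMIs of Fosb and Fosl2 in WT limit their ratios.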
